A study of Rattus norvegicus with 6 samples.

Results

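Neuropeptides are short signalling peptides cut from larger precursor proteins, packed into dense-core granules and released from nerve endings and endocrine cells. The gene group described here holds 8 such precursor genes, Cck, Penk, Npy, Gal, Adcyap1, Tac1, Cartpt and Vip, and Nptx1, which encodes the secreted synaptic protein neuronal pentraxin 1. All 9 genes, of 17055 gene rows, were found by symbol in each count file. The group was chosen by symbol with the counts of the same libraries already compared between the ages, and Cck, Nptx1 and Penk were selected on their large differences in count. The values of the 9 genes at the 2 ages are therefore a description and carry no test. Tests are given for genes outside the group, such as the receptors of these peptides.

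Islets of Langerhans, the endocrine clusters of the pancreas, were taken from untreated Sprague-Dawley rats. The P10 group held 3 libraries of islets from 10-day-old rats, whose sex the labels do not give. The adult group held 3 libraries of islets from 3-month-old males, so age and any difference in sex cannot be told apart. Polyadenylated RNA was sequenced, and the labels do not say whether a library pools several animals. Counts assigned to genes ran from 3307415 to 6477825 per library. Levels are given in CPM, read counts scaled to the depth of the library and normalised for its composition. Values are listed in the order P10 replicates 1, 3 and 4, then adult replicates 1, 2 and 3. Levels are not scaled to transcript length, so levels are compared between libraries and not between genes. Islet endocrine markers were abundant at both ages, with 9 of 9 measured. Their summed level ran from 257513 to 324290 CPM at P10 and from 558221 to 694663 CPM in adults. Most of this sum was insulin mRNA, with Ins1 at means of 141897 and 302926 CPM and Ins2 at 123369 and 277502 CPM. Gcg, on the same list, went the other way, with means of 25507 CPM at P10 and 14958 CPM in adults. Marker genes of fibroblasts summed to between 2486 and 3168 CPM at P10 and between 239 and 326 CPM in adults, and those of ducts to between 841 and 904 and between 30.4 and 42.3 CPM. In RNA from whole islets, fewer cells of a type and less RNA per cell cannot be told apart.

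In the pancreas, most of these peptides are known as messengers of the autonomic nerves that enter the islet, and several are also made by endocrine cells. Vasoactive intestinal peptide (from Vip) and PACAP (from Adcyap1) act on receptors that raise cyclic AMP and strengthen insulin release when glucose is high. Galanin (Gal) and neuropeptide Y (Npy) restrain insulin release, enkephalins (Penk) act on opioid receptors, and substance P (Tac1) acts on tachykinin receptors. Cholecystokinin (Cck) is a gut hormone and brain peptide that stimulates beta cells and acinar cells. The CART peptide (Cartpt) is a neuropeptide that rat islet endocrine cells also produce. Neuronal pentraxins gather AMPA-type glutamate receptors at synapses.

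A promoter entry was present in RefSeq (GRCr8 assembly) for 6 of the 9 genes, Npy, Gal, Adcyap1, Tac1, Cartpt and Vip, and was not found for Cck, Penk and Nptx1. The 250 bases upstream of the start site are shown for Cartpt, Gal and Vip, the genes among them with counts in every library at both ages. Several neuropeptide genes are known to be driven by the cyclic AMP response element, and the capitals mark its core, TGACG on either strand. The windows lie at chr2:32991236-32991485 (minus strand) for Cartpt, chr1:210084573-210084822 (minus strand) for Gal and chr1:44470230-44470479 (plus strand) for Vip.
Cartpt: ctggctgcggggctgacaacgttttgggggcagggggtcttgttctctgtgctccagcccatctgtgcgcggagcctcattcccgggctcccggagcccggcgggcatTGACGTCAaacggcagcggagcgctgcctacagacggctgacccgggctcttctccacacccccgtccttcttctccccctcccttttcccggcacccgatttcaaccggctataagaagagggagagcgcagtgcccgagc
Gal: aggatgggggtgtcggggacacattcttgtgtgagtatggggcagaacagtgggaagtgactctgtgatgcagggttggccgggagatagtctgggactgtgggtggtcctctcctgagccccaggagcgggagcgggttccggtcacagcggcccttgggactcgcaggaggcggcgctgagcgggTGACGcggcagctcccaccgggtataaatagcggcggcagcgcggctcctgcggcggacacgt
Vip: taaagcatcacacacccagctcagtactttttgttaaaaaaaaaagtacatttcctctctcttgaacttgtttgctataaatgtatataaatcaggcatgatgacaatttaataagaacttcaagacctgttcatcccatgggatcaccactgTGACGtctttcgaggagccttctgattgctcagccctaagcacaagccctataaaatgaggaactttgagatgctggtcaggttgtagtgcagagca
The Cartpt window held the whole palindromic element, TGACGTCA, which begins 142 bases upstream of the start, so that its core was matched on both strands with overlap. The Gal window held the core once, 63 bases upstream, and the Vip window once, 97 bases upstream. Tac1 held it once, 206 bases upstream, whereas the letters were not in the windows of Npy and Adcyap1. Of 33469 promoter windows of the same length in the table, 18.2% held the core on either strand and 1.59% held the whole element. A match of letters is a description and not a binding site.

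P10 replicate 1 stood apart in low-level genes, which bears on the values that follow. It had the most gene counts of the 6 libraries, yet 11182 genes with a count against 11342 to 12369 in the others, and 211 genes with 1 to 4 counts against 669 to 1613. Among 806 genes averaging 1 to 2 CPM in the other P10 libraries, 36.8% were listed at 0 in P10 replicate 1. The same share was 14.7% for P10 replicate 3 and 9.80% for P10 replicate 4. Adult replicate 3 was also low in genes with a count (11342), with 22.7% at 0 in that range against 15.9% and 13.3% for adult replicates 1 and 2. At these depths 3 counts, about the upper 95% counting limit for a count of 0, equal 0.406 to 1.098 CPM. This limit covers counting error only.

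**Figure D1:**
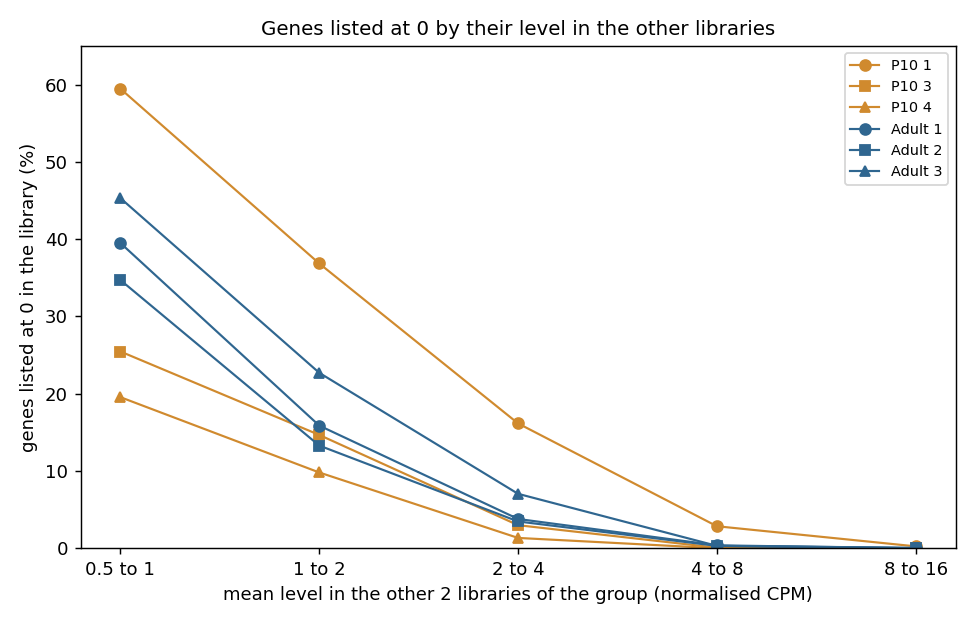
Percentage of genes listed at 0 in each library (vertical axis) against the mean level of those genes in the other 2 libraries of the same age, in normalised CPM (horizontal axis). P10 replicate 1 lies above the other libraries in each range, with 59.5% at 0.5 to 1 CPM, 36.8% at 1 to 2 CPM and 0.243% at 8 to 16 CPM.

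Cck, the cholecystokinin precursor, was low at P10 and higher in each adult library. The P10 libraries held 0, 7 and 5 counts and the adult libraries 24, 36 and 67. These correspond to 0, 1.04 and 1.21 CPM at P10 and to 8.29, 13.2 and 12.3 CPM in adults. The ages did not overlap, and adult replicate 1 was the lowest adult library. The ratio of normalised counts, adult over P10, was 17.5 with a 95% counting interval of 9.65 to 34.7. Leaving out P10 replicate 1, where the gene is listed at 0, gave a ratio of 10.4 (5.75 to 20.6). The ratio rested on 12 counts at P10, and without P10 replicate 3 it was 26.4 (11.02 to 82.7).

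Nptx1 followed the same order of the ages. Its counts were 0, 17 and 5 in the P10 libraries and 56, 48 and 82 in the adult libraries. The levels were 0, 2.52 and 1.21 CPM at P10 and 19.3, 17.6 and 15.03 CPM in adults. The adult libraries lay close together and all P10 libraries lay far below them. The ratio of normalised counts was 13.9 (95% counting interval 8.94 to 22.8). That ratio was 8.30 (5.32 to 13.6) without P10 replicate 1. It was 38.7 (16.3 to 120.5) without P10 replicate 3, which held 17 of the 22 P10 counts.

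Penk, the enkephalin precursor, was higher at P10. It had 87, 64 and 23 counts in the P10 libraries and 4, 2 and 11 in the adult ones. In CPM these were 11.8, 9.48 and 5.57 at P10 and 1.38, 0.732 and 2.02 in adults. The ages did not overlap, and P10 replicate 4, the lowest P10 library, was still above the highest adult library. The ratio of normalised counts, P10 over adult, was 6.21 (95% counting interval 3.77 to 10.9), and ranged from 5.21 to 8.93 when single libraries were left out. P10 replicate 1, which lists several other members at 0, had the highest Penk level. Fibroblast and duct markers were lower in adults too, by median log2 fold changes of -2.60 over 6 tested genes and -3.81 over 3. Of 4 tested Schwann cell markers 2 fell, against 13.8% of all genes tested, and Fabp7 was at 0 in all 6 libraries. Schwann cell markers summed to between 54.7 and 98.3 CPM at P10 and between 22.4 and 40.3 CPM in adults. The part of these cells in the Penk difference was not tested.

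Of the 9 members, 6 had enough counts for the fit over all genes. The ages did not overlap for 3 of these 6 (Cck, Nptx1 and Penk), against 42.3% of the 10124 genes with enough counts. These 3 genes were among the reasons for the choice of the group, so nothing is read from that count.

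**Figure D2:**
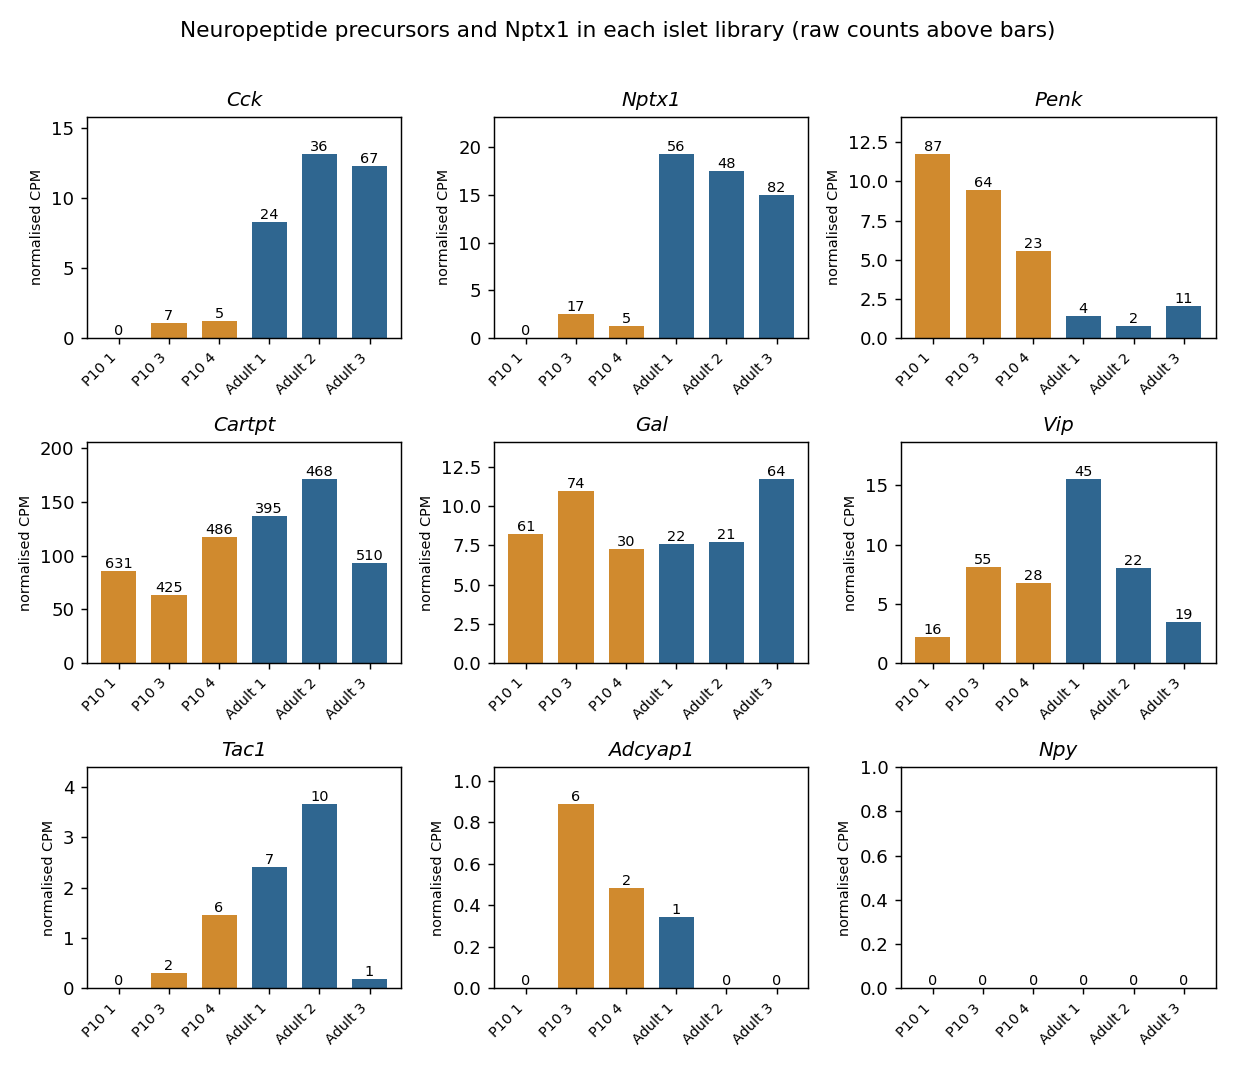
Normalised CPM (vertical axes, linear from 0, 1 scale per gene) of the 9 genes in each library, with P10 replicates 1, 3 and 4 in orange and adult replicates 1, 2 and 3 in blue. Numbers above the bars are raw counts. Cck and Nptx1 are higher in each adult library, Penk in each P10 library, the other members overlap between the ages, and Npy is listed at 0 in all 6.

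Cartpt was well covered at both ages, with 1542 counts at P10 and 1373 in adults. Its levels were 85.3, 62.9 and 118 CPM at P10 and 136, 171 and 93.5 CPM in adults. Adult replicate 3 lay below P10 replicate 4, so the ages overlapped. The means were 88.6 ± 27.5 CPM at P10 and 134 ± 39.0 CPM in adults (SD, n = 3), a log2 fold change of 0.59 ± 0.22 (SE). This difference depended on the scaling, and with library totals alone it was 0.09. With at least 395 counts in each library, the spread between libraries of an age was larger than the counting error.

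Gal, the galanin precursor, had means at the 2 ages that differed by less than the spread within an age. It stood at 8.25, 10.96 and 7.26 CPM at P10 and at 7.60, 7.68 and 11.7 CPM in adults, with overlap. The means were 8.82 ± 1.91 and 9.004 ± 2.36 CPM (SD, n = 3). The ratio of normalised counts, adult over P10, was 1.07 with a counting interval of 0.830 to 1.37, from 165 counts at P10 and 107 in adults. The sign of the fitted difference (log2 0.04) turned without adult replicate 3 (-0.21), without P10 replicate 4 (-0.07) and with library totals alone (-0.46).

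Vip varied more between libraries of an age than between the ages. The P10 libraries were at 2.16, 8.15 and 6.78 CPM and the adult libraries at 15.5, 8.05 and 3.48 CPM. P10 replicate 1 was the lowest P10 library and adult replicate 1 the highest adult library. The means were 5.70 ± 3.13 and 9.02 ± 6.09 CPM (SD, n = 3), and the log2 fold change of 0.64 ± 0.59 (SE) became -0.01 without adult replicate 1. Markers of autonomic neurons, 15 measured genes including Prph, Nefl and Elavl4, summed to 147, 131 and 81.2 CPM in adult replicates 1, 2 and 3, the same order as Vip. At P10 they summed to 119, 168 and 114 CPM in replicates 1, 3 and 4, where the order differed. Of the 15 genes, 8 had enough counts for the fit. Among markers of transmitter type, Dbh (noradrenergic) had 0, 25 and 7 counts at P10 and 23, 26 and 24 in adults, and Chat (cholinergic) had 19, 29 and 6 and then 5, 8 and 10. Slc18a3, also cholinergic, had 21, 17 and 3 counts at P10 and 1, 5 and 0 in adults, and Hand2, a factor of autonomic neurons, had 8, 55 and 15 and then 3, 6 and 0. These genes thus differ in their order across the libraries. Phox2a had counts only in P10 replicate 4 (6 counts), and Th and Chrna3 had at most 5 counts in a library. At a threshold of 0.05 on the false discovery rate (FDR), edgeR's quasi-likelihood fit called 1 of the 8 markers lower in adults (Gap43, FDR = 0.0456). That share is close to the 13.8% of all genes tested that were called lower. Gap43 no longer passed when any 1 library other than adult replicate 2 was left out (FDR from 0.0531 to 0.202). No marker rose past the threshold, against 12.5% of all genes tested, with 1 (Dbh) higher at an unadjusted p under 0.05. That unadjusted level was reached by 3804 of the 10124 genes tested, in either direction. The part of nerve content in the Vip values was not tested.

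The other members were too low for the fit. Tac1, the substance P precursor, had 0, 2 and 6 counts at P10 and 7, 10 and 1 in adults, with overlap. The single count in adult replicate 3, the deepest adult library, corresponds to 0.183 CPM against 2.42 and 3.66 CPM in the other adults. The ratio of normalised counts was 3.71 (1.53 to 9.86), and it was 2.19 (0.716 to 6.69) without adult replicate 2 and 11.5 (2.75 to 102) without P10 replicate 4, so the size of any difference was not resolved at this depth. Adcyap1, the PACAP precursor, had 0, 6 and 2 counts at P10 and 1, 0 and 0 in adults. Its ratio, P10 over adult, was 4.85 with a counting interval of 0.650 to 215, and rested on 1 adult count. Leaving out P10 replicate 1 gave 8.15 (1.09 to 362) and leaving out P10 replicate 3 gave 1.92 (0.100 to 113).

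**Figure D3:**
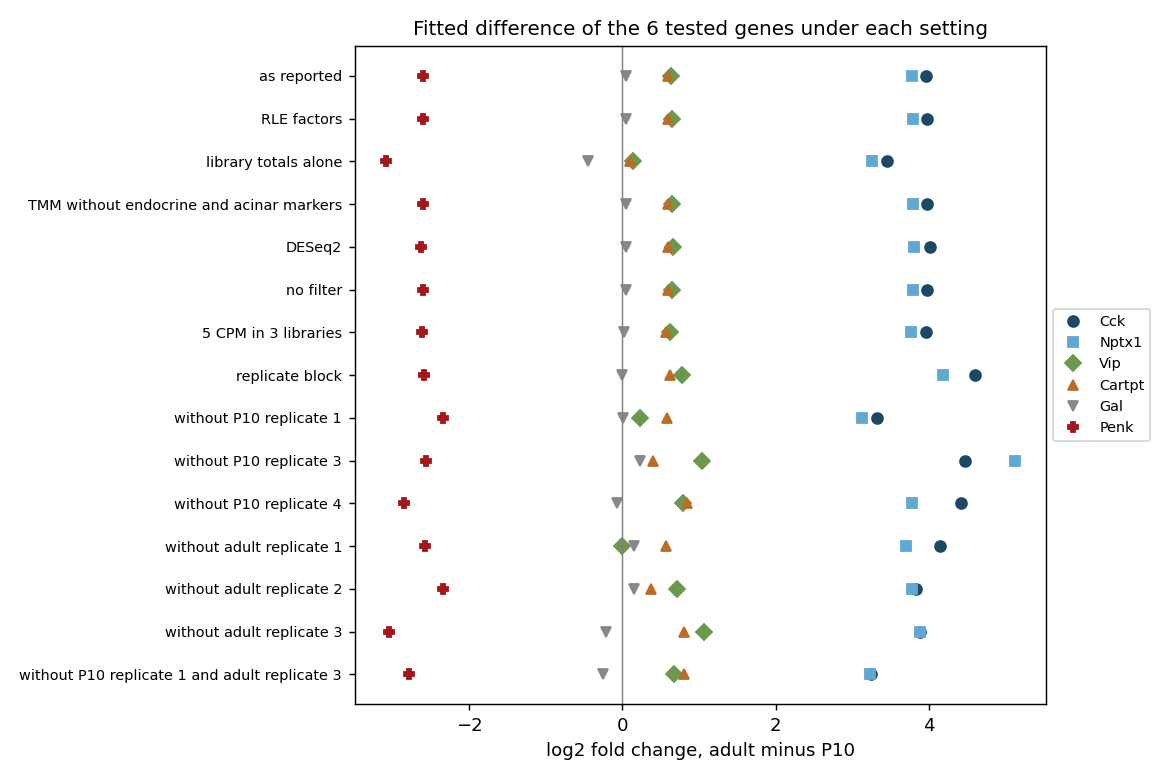
Log2 fold change, adult minus P10 (horizontal axis), of the 6 members with enough counts, under the reported fit and each alternative (vertical axis). Cck and Nptx1 stay right of 3 and Penk left of -2 under each setting drawn. This is no test, because these genes were chosen on their differences in the same libraries. Cartpt and Vip lie at 0.09 and 0.13 with library totals alone. Gal changes side, and so does Vip without adult replicate 1 (-0.0098).

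Npy was listed at 0 in all 6 libraries. This cannot be read as absence of the mRNA, because 3810 gene rows were at 0 throughout and these included genes that cells in general use. Rps6, Rps9, Rpl8 and Rplp2 (ribosomal proteins) and Hprt1 (a purine salvage enzyme) were all at 0, examples looked up after the values were seen. So were Col1a2, although its partner chain Col1a1 averaged 1732 CPM at P10, and Pcsk1n, which encodes the granule protein proSAAS. Of the 9 members, 5 were listed at 0 in P10 replicate 1 (Cck, Nptx1, Adcyap1, Tac1 and Npy).

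Summed over the 9 genes, the level ran from 96.3 to 142 CPM at P10 and from 138 to 222 CPM in adults, with adult replicate 3 below P10 replicate 4. Cartpt alone made up between 65.4% and 83.1% of this sum in each library, a share of reads that is not scaled to transcript length. Without Cartpt the sums ran from 22.2 to 33.3 CPM at P10 and from 44.7 to 54.9 CPM in adults. That remainder includes Cck, Nptx1 and Penk, so nothing is read from it.

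The genes whose levels followed Cck, Nptx1 and Penk most closely across the 6 libraries were taken by Pearson correlation of log2(CPM + 1), among 8769 genes averaging at least 5 CPM. For Cck these were Osbp (r = 0.998), Ets2 (0.996) and Ppox (0.996). For Nptx1 they were Stau2 (r = 0.998), Syt3 (0.997) and Dusp5 (0.996), and for Penk Mcm7 (r = 0.998), Rpl11 (0.997) and Ifitm3 (0.997). The 6 points form 2 age groups, and 792, 736 and 724 genes reached r of at least 0.9 with Cck, Nptx1 and Penk, so many genes share this order of the libraries. The nearest genes differed between the ages by less than the members did. Osbp, an oxysterol-binding protein, differed by 1.70-fold, Syt3, a synaptotagmin, by 3.24-fold and Mcm7, a replicative helicase subunit, by 2.22-fold.

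Receptors for the peptides were tested as genes outside the group. Of 18 with a row, 5 had enough counts. Vipr2, the VPAC2 receptor for both VIP and PACAP, rose in adult islets, and so did Cckar, the cholecystokinin A receptor. No receptor fell in edgeR or in DESeq2, and 0 were lower at an unadjusted p under 0.05 in edgeR. Among the 10124 genes tested, 3804 reached that unadjusted level in either direction. At the FDR threshold of 0.05, 26.3% of all genes tested were called, 12.5% higher and 13.8% lower in adults. Called receptors were 2 of 5, and the median log2 fold change of the 5 was 0.37. The receptor counts of 2 higher and 0 lower held when any single library was left out.

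Vipr2 stood at 5.14, 4.74 and 5.57 CPM at P10 and at 23.5, 25.6 and 14.5 CPM in adults. All adult libraries were above all P10 libraries. The log2 fold change was 2.03 ± 0.34 (SE), or 4.07-fold (edgeR FDR = 0.000460), and the call held with library totals alone (log2 1.53). Cckar was at 32.5, 47.8 and 30.3 CPM at P10 and at 60.1, 83.8 and 77.2 CPM in adults, again without overlap. It rose 1.99-fold (log2 0.99 ± 0.20 SE, edgeR FDR = 0.00187). With library totals alone the Cckar difference was 0.48 (FDR = 0.0883) and did not pass. Cckar is also a receptor of acinar cells. Acinar markers summed to between 2295 and 3278 CPM at P10 and to 830, 984 and 3340 CPM in adult replicates 1, 2 and 3. The 6 acinar markers did not move together. Of these, 2 were higher in adults (Pnlip and Cela1), 2 lower (Cpa1 and Ctrb1) and 2 did not pass, against 12.5% and 13.8% of all genes. Adult replicate 3, with the highest acinar sum, lay between the other adult libraries in Cckar. The part of acinar cells in the Cckar difference was not tested.

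The other tested receptors did not pass. Adcyap1r1, the PACAP-selective PAC1 receptor, was at 11.7 ± 1.01 CPM at P10 and 15.2 ± 2.37 CPM in adults (SD, n = 3; edgeR FDR = 0.397). Tacr3, the neurokinin B receptor, was at 9.72 ± 3.36 and 6.42 ± 3.47 CPM (FDR = 0.430). Galr1, a galanin receptor, varied widely within each age, with 0, 20 and 12 counts at P10 and 1, 0 and 23 in adults (FDR = 0.948). Leaving out P10 replicate 1 and adult replicate 3 together, an alternative chosen after seeing the data, gave Galr1 a log2 fold change of -3.82 (FDR = 0.0158), from 32 counts at P10 and 1 in adults. Outside the naming rule, Tacr1, the substance P receptor, had too few counts for the fit, with 55, 9 and 9 at P10 and 3, 1 and 2 in adults. Cckbr, Oprk1, Npy2r, Npy5r, Galr2 and Tacr2 were listed at 0 in all 6 libraries, which has the same limit as for Npy.

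Among pentraxins and the glutamate receptor subunits that neuronal pentraxins gather, 2 of 6 tested genes rose and 1 fell, against 12.5% and 13.8% of all genes. Nptxr, the membrane-bound neuronal pentraxin receptor, was at 38.3, 44.0 and 31.9 CPM at P10 and at 79.8, 102 and 80.1 CPM in adults. It rose 2.27-fold (log2 1.18 ± 0.18 SE, edgeR FDR = 0.000132), without overlap and also with library totals alone (log2 0.68). Gria2, an AMPA receptor subunit, rose 1.83-fold, from 20.8 ± 0.699 to 38.0 ± 9.33 CPM (SD, n = 3; edgeR FDR = 0.00924). The Gria2 call was lost with library totals alone (FDR = 0.219) and without adult replicate 2 (FDR = 0.0514). Gria3, another subunit, did not pass, at 21.0 ± 3.68 and 25.2 ± 10.6 CPM (FDR = 0.579). The subunits Gria1 and Gria4 were listed at 0 in every library, which has the same limit as for Npy.

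Nptx2, the closest relative of Nptx1, showed no such order of the ages. It was at 0, 12.1 and 11.1 CPM at P10 and at 12.1, 2.93 and 3.67 CPM in adults (edgeR FDR = 0.831). The zero in P10 replicate 1 stands against 82 and 46 counts in the other P10 libraries. Of 2057 genes averaging 8 to 16 CPM in those libraries, 5 (0.243%) were at 0 in P10 replicate 1. Crp, C-reactive protein, a pentraxin of innate immunity, fell 2.35-fold, from 11.9 ± 4.22 to 5.002 ± 1.52 CPM (SD, n = 3; edgeR FDR = 0.0474). That call was lost without P10 replicate 3, P10 replicate 4 or any 1 of the adult libraries (FDR from 0.0724 to 0.237). Ptx3, another immune pentraxin, did not pass (log2 -1.76 ± 0.65 SE, FDR = 0.0590), but did without adult replicate 3 (FDR = 0.0261), in DESeq2 (0.0270), with library totals alone (0.00973), without a filter (0.0125) and with at least 5 CPM in 3 libraries (0.0489).

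**Figure D4:**
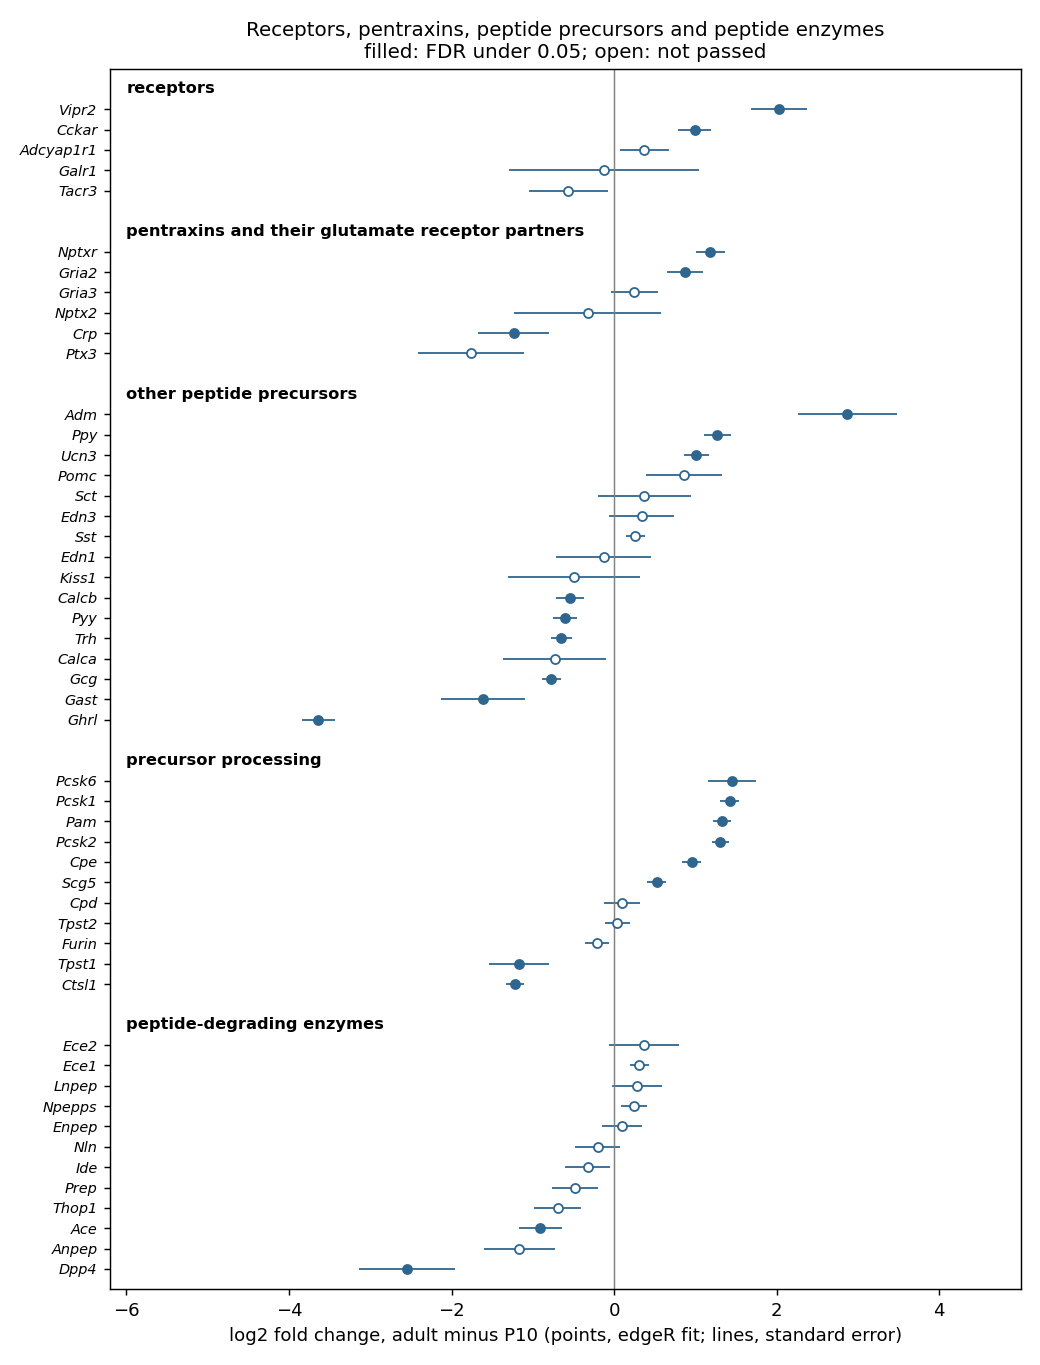
Log2 fold change, adult minus P10, with its standard error (horizontal axis) for the tested genes of the receptor, pentraxin, precursor, processing and peptidase lists. Filled points passed the threshold of 0.05 on the FDR and open points did not. Vipr2 at 2.03 and Cckar at 0.99 are the filled receptors, and Nptxr at 1.18 and Gria2 at 0.87 the filled genes right of 0 in the pentraxin list.

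Of the other peptide precursors, 16 of 51 with a row could be tested, 3 rose and 6 fell, against 12.5% and 13.8% of all genes, and their median log2 fold change was -0.31. Adm, adrenomedullin, a vasodilator peptide, rose 7.31-fold, from 4.06, 0.148 and 4.36 CPM at P10 to 25.5, 13.2 and 22.4 CPM in adults (edgeR FDR = 0.00261). Ucn3 and Ppy were the others that rose, by log2 1.01 and 1.27. Trh, the precursor of thyrotropin-releasing hormone, which neonatal rat islets are known to make, fell 1.57-fold, from 1876 ± 292 to 1199 ± 160 CPM (SD, n = 3; FDR = 0.00211). Ghrl and Gcg fell by log2 -3.64 and -0.77. Gast, Calcb and Pyy, named after their values were seen, also fell. Gast, gastrin, shares its receptor-binding end with cholecystokinin and moved opposite to Cck, from 13.8, 8.59 and 12.3 CPM at P10 to 1.04, 6.22 and 4.03 CPM in adults (log2 -1.61 ± 0.52 SE, FDR = 0.0302). Gast no longer passed when P10 replicate 1, P10 replicate 4, adult replicate 1 or adult replicate 3 was left out (FDR from 0.0605 to 0.0988). Calcb did not pass on leaving out P10 replicate 1, P10 replicate 4, adult replicate 1 or adult replicate 2 (FDR from 0.0557 to 0.163). Sst, Edn3 and Pomc did not pass (FDR = 0.128, 0.579 and 0.189), except Sst without P10 replicate 4 (FDR = 0.0344).

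Enzymes that cut and finish peptide precursors included 6 of 11 tested genes that rose and 2 that fell, against 12.5% and 13.8% of all genes, with a median log2 fold change of 0.52. With library totals alone 5 were higher and 4 lower. Pcsk1 and Pcsk2, the prohormone convertases of dense-core granules, rose 2.68-fold and 2.47-fold. Cpe, the carboxypeptidase that trims the cut ends, rose 1.94-fold, and Pam, which amidates cholecystokinin, VIP, substance P and other peptides, 2.51-fold, from 541 ± 8.45 to 1360 ± 78.6 CPM (SD, n = 3; edgeR FDR = 3.23e-07). Pcsk6, another convertase, rose 2.73-fold and Scg5, a chaperone of Pcsk2 named after its value was seen, 1.44-fold, but not with library totals alone (log2 0.034, FDR = 0.872). Ctsl1, cathepsin L, fell 2.32-fold. Tpst1, a tyrosine sulphotransferase, fell 2.25-fold (FDR = 0.0292), named after its value was seen, while Tpst2, the other enzyme that can sulphate cholecystokinin, was at 62.2 ± 2.10 and 64.3 ± 6.48 CPM (FDR = 0.876). Tpst1 did not pass once adult replicate 2, adult replicate 3 or P10 replicate 4 was left out (FDR from 0.0681 to 0.0975). Furin and Cpd did not pass (FDR = 0.334 and 0.797), except that Furin was lower with library totals alone (FDR = 0.00227). The summed level of the list ran from 4055 to 4354 CPM at P10 and from 7798 to 8106 CPM in adults. Of 9 tested islet endocrine markers, 6 were higher in adults and 1 (Gcg) lower, against 12.5% and 13.8% of all genes, and 2 did not pass. The part of the endocrine share in the difference of the list sum was not tested.

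Of the peptide-degrading enzymes, 2 of 12 tested genes fell and 0 rose in edgeR. The share that fell is close to the 13.8% of all genes. Ece1 was the 1 gene higher at an unadjusted p under 0.05, and the 1 gene called higher in DESeq2. Dpp4, which cuts incretins, neuropeptide Y and PACAP, fell 5.84-fold, from 9.47 ± 1.87 to 1.65 ± 1.28 CPM (SD, n = 3; edgeR FDR = 0.00480). Ace, the angiotensin-converting enzyme, fell 1.88-fold (FDR = 0.0191), a call lost without P10 replicate 1 (FDR = 0.0560), without adult replicate 1 (FDR = 0.0867) and, narrowly, without P10 replicate 3. Ece1, Npepps and Prep did not pass in edgeR (FDR = 0.0658, 0.289 and 0.239), except that Prep was lower with library totals alone (FDR = 0.0167). The count of falling enzymes was between 1 and 3 when single libraries were left out.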

How the data were processed

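Per the labels' protocols, poly(A) RNA gave unstranded single-end libraries, so reads of overlapping genes on opposite strands cannot be told apart. Per the submitters' processing notes, Bowtie2, TopHat2 2.0.10 and HTSeq were used on the rn5 build. The authors deposited raw read counts per gene symbol for each library, with 5 counter rows that were left out. A deposited table of all libraries, with 6 columns and some gene names turned into dates, was not used. edgeR 4.0.16 in R 4.3.3 fitted a quasi-likelihood model of age to 10124 genes kept by filterByExpr (minimum count 10), with TMM factors and Benjamini-Hochberg FDR over all tested genes. The biological coefficient of variation was 23.7%. The SE was taken from the fold change and the F statistic, as |log2 fold change|/√F. Counting intervals are exact 95% binomial intervals and cover counting error only. P-values measure the spread between labelled biological replicates, which may be pools. Alternatives were RLE factors, library totals alone, TMM factors without endocrine and acinar markers, DESeq2 1.42.0, other filters, a replicate block and leaving out libraries. The members and lists were chosen with earlier results of these data known. Named genes are the members, up to 6 called (smallest p) and 3 uncalled genes (highest CPM) per list, and 3 nearest genes for Cck, Nptx1 and Penk; others are marked. The script was tested on simulated counts.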

Additional observations from a re-analysis of the deposited data

How the results depend on the processing

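Cck, Nptx1 and Penk kept their direction under each alternative run, with log2 fold changes of 3.25 to 4.60, 3.13 to 5.12 and -3.09 to -2.35. These genes were chosen on their large differences in the same counts, so the unchanged direction is a description and no test. Library totals alone do not correct for composition. Ins1 and Ins2 together held 31.4 ± 2.71% of gene counts at P10 and 48.7 ± 3.11% in adults (SD, n = 3). With library totals alone the median of all genes shifted by -0.49, and 343 genes were higher and 3612 lower, against 1265 and 1394. In that setting 1 receptor and 1 pentraxin-list gene were higher, and 2 pentraxin-list, 4 processing and 6 peptidase genes lower. The replicate numbers 1 and 3 occur in both ages, but libraries of the same number did not deviate together (correlations of -0.02 and -0.005). With the replicate number as a block, 679 genes were higher and 729 lower, with 1 pentraxin-list gene higher and 0 lower, 1 processing gene lower and 0 peptidases lower. Calls lost in the block fit were those of Gria2 (FDR = 0.137), Crp (0.354), Dpp4 (0.116), Ace (0.0949), Gast (0.0929), Calcb (0.425) and Tpst1 (0.266), among the list genes named. DESeq2 gave 1 peptidase higher. The pentraxin list had 2 genes lower in DESeq2, without a filter, with at least 5 CPM in 3 libraries, and without P10 replicate 1 and adult replicate 3 together. That last setting, chosen after seeing the data, gave 1 receptor, 1 processing gene and 4 peptidases lower. Leaving out single libraries gave 1 to 2 pentraxin-list genes higher and 0 to 1 lower, 1 to 2 processing genes lower and 1 to 3 peptidases lower. The cause of these changes was not tested.

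Signs turned for several genes, and Ets2 was one that had passed in the reported fit (log2 0.43, edgeR FDR = 0.0207). With library totals alone these were Gal (-0.46), Adcyap1r1 (-0.13), Gria3 (-0.27), Sst (-0.23), Edn3 (-0.18), Tpst2 (-0.46, FDR = 0.0389), Cpd (-0.41), Ece1 (-0.19), Npepps (-0.25) and Ets2 (-0.071). In the block fit they were Gal (-0.0072), Galr1 (1.00), Gria3 (-0.029), Nptx2 (1.41), Tpst2 (-0.068) and Cpd (-0.067). With libraries left out, the log2 fold change ran from -0.25 to 0.23 for Gal, -0.0098 to 1.07 for Vip, -3.82 to 0.39 for Galr1, -0.12 to 0.51 for Gria3, -1.20 to 0.22 for Nptx2, -0.047 to 0.65 for Edn3, -0.036 to 0.12 for Tpst2 and -0.054 to 0.30 for Cpd. Depth limits Tac1 and Adcyap1, which had at most 10 counts in a library.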
